A study of Drosophila melanogaster with 19 samples.

Results

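The genes described here are the constitutive Hsc70 chaperones (Hsc70-1 to Hsc70-5), the Hsp90 gene Hsp83 and the small heat shock genes Hsp22, Hsp23, Hsp26 and Hsp27, measured on Affymetrix arrays in the Drosophila pupal notum. A probe set, the group of probes that reports on a transcript, was taken where the platform annotation gives it 1 of these symbols alone. That held for 7 of the 10 genes, through 9 of the 18769 probe sets on the array: 3 for Hsc70-1 and 1 each for Hsc70-2, Hsc70-3, Hsc70-4, Hsc70-5, Hsp26 and Hsp27. Hsp83 and Hsp23 have no probe set naming them alone in the annotation used here. Hsp22 has 2 that also name CG4456 and were not used. The set was chosen on measured values in 1 respect: Hsc70-2 was picked on its higher level in Ase than in GFP. Its levels in those groups are therefore given as a description, without a test.

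Hsp70 family chaperones bind exposed stretches of unfolded proteins and release them in a cycle driven by ATP. J-domain cochaperones deliver their clients and nucleotide exchange factors reset them. The Hsc70 genes are the members of this family that act without a heat shock, in the cytosol, in the endoplasmic reticulum or in mitochondria. Small heat shock proteins hold unfolding proteins without using ATP. In Drosophila some of them are also switched on in development by the steroid hormone ecdysone, which rises in the pupa.

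All animals carried the sca-Gal4 driver and tub-Gal80ts, a temperature-sensitive repressor of Gal4. They were raised at 18 °C, moved to 29 °C for the last 6 h and dissected at 16 h after puparium formation (APF), so every group met the same warm step. The added transgenes were UAS-Ase with UAS-E(spl)m3-HLH (Ase+m3, 2 arrays), UAS-Ase (Ase, 3 arrays), UAS-E(spl)m3-HLH (m3, 3 arrays), UAS-Ac with UAS-Sens (Ac+Sens, 3 arrays), UAS-Ac (Ac, 2 arrays), UAS-Sens (Sens, 3 arrays) or, in the control, UAS-GFPnls (GFP, 3 arrays). Achaete (Ac), Asense (Ase) and Senseless (Sens) are transcription factors of the sensory bristle lineage, and E(spl)m3-HLH (m3) is a repressor of the Enhancer of split family, induced by Notch signalling. The RNA for an array came from 8 to 12 pooled notums, in which sca-Gal4 drives the transgene in only some of the cells, and fewer expressing cells and less RNA per cell cannot be told apart in such pools. Levels below are log2 signals and differences are log2 fold changes, given with the standard error (SE) and the 95% confidence interval.

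A few arrays need to be known before the results. On replicate 3 of Sens, Ase, m3 and Ac+Sens, 60.3% to 60.6% of probe sets are listed at exactly 0, and these entries were treated as missing. The array labelled Sens replicate 1 goes against its label, with sens at 7.38, against 7.15 to 7.55 in GFP, and sc at 10.63, against 10.37 to 10.42 in Ac and 6.95 to 7.28 in GFP. It thus has sens near the GFP level and sc near the Ac level, and was kept in Sens under its label. The transgenes that matter most here could not be checked in this way. The ase probe set averaged 5.56 in Ase and 5.32 in GFP, the E(spl)m3-HLH probe set 11.10 in m3 and 11.05 in GFP, and the ac probe set 6.80 in Ac and 6.98 in GFP, and where these probe sets lie relative to the transgenes is not known here. Ase+m3 replicate 2 stood apart from all the others, in that its Spearman correlation with each other array had a median of 0.89, while the other 18 arrays had medians between 0.964 and 0.987, and genes with long transcription units were low on it. That trend was not confined to it: the Spearman correlation of gene length with an array's deviation from the median of the arrays was −0.687 there, −0.601 on GFP replicate 2, −0.449 on Ac+Sens replicate 3, 0.436 on Ase replicate 3 and 0.462 on Ac+Sens replicate 1. The 9 notum epithelium markers all had values on every array, and their summed signal (log2) was 11.62 to 12.36 in Ase+m3, the lowest range of any group, against 12.23 to 12.46 in GFP.

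Hsc70-2, a cytosolic Hsc70, was far higher with Ase alone than in any other group. Its probe set stood at 6.49, 6.46 and 6.03 on the 3 Ase arrays, against 2.90, 3.08 and 2.81 on the 3 GFP arrays. Every Ase array was thus more than 2.9 above every GFP array. The means were 6.33 ± 0.26 (SD, n = 3) in Ase and 2.93 ± 0.14 (SD, n = 3) in GFP, a difference of 3.40 (SE 0.12, interval 3.15 to 3.65) or 10.6-fold on the array's scale, set against a GFP level close to the floor of the arrays. Ase replicate 3 is one of the arrays with listed zeros, and Hsc70-2 kept a value on it.

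**Figure D1:**
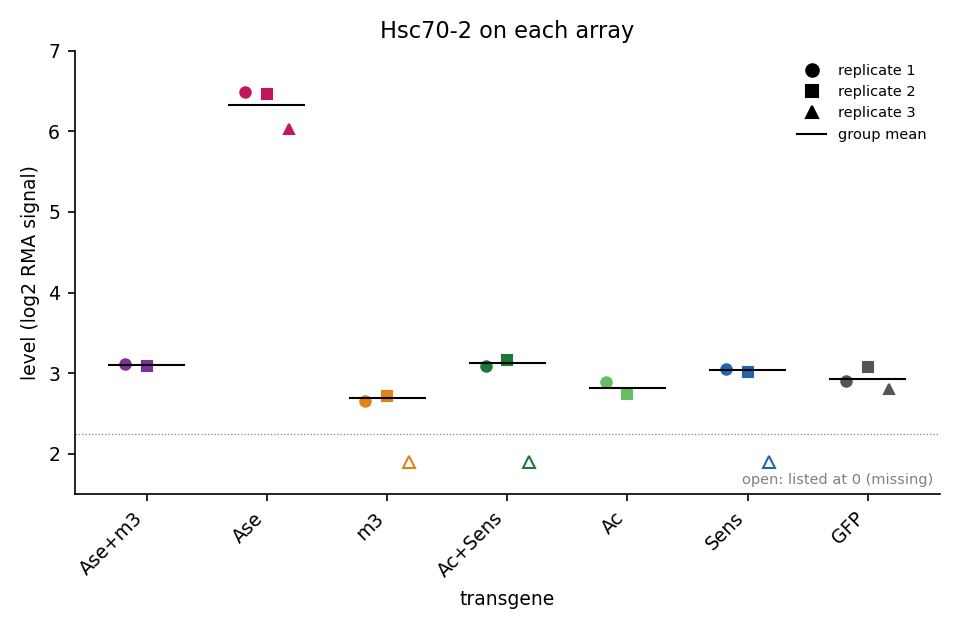
Level of Hsc70-2 (log2 signal, vertical axis) on each of the 19 arrays by transgene, with bars for group means. The 3 Ase arrays lie between 6.03 and 6.49 and all other measured arrays between 2.66 and 3.16, while open triangles mark 3 arrays on which the probe set is listed at 0.

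The high level was absent when E(spl)m3-HLH was expressed together with Ase. Hsc70-2 was at 3.11 and 3.09 on the 2 Ase+m3 arrays, against 6.49, 6.46 and 6.03 in Ase. The difference between Ase+m3 and Ase was −3.23 (SE 0.13, interval −3.51 to −2.94), and the Ase+m3 level differed from GFP by 0.17 (SE 0.13, interval −0.11 to 0.46). It was −3.24 with Ase+m3 replicate 1 left out and −3.22 with replicate 2 left out, so the array that stood apart does not carry this value. The interaction, which is the Ase+m3 minus Ase difference less the m3 minus GFP difference, was −2.99 (SE 0.19), and 3.95% of all probe sets were called for it. These values use the Ase or GFP arrays on which the gene was picked and are a description.

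In GFP and in the 4 other groups without Ase, Hsc70-2 stayed at the bottom of the signal range. It was at 2.66 and 2.72 in m3, at 3.09 and 3.16 in Ac+Sens, at 2.89 and 2.74 in Ac and at 3.05 and 3.02 in Sens, with the third array of m3, Ac+Sens and Sens listed at 0. The lowest signals of any probe set on the arrays without zeros lay between 1.93 and 2.14, so these levels sit close to the floor, and no detection calls were used here to tell them from background. From highest to lowest the group means ran Ase, Ac+Sens, Ase+m3, Sens, GFP, Ac and m3. Leaving Ase aside, they span 2.69 to 3.12, and neighbours in that order differ by at most 0.13.

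3 comparisons of Hsc70-2 use neither the Ase nor the GFP arrays and can be tested. In Ase+m3 against m3 both arrays of Ase+m3 were above both measured m3 arrays, with means of 3.10 and 2.69. The difference of 0.41 (SE 0.14, interval 0.10 to 0.72) did not pass limma's test after adjustment over all probe sets (adjusted p = 0.0884), a comparison in which 6.56% of all probe sets were called at an adjusted p under 0.05. Ac+Sens differed from Ac by 0.30 (SE 0.14, interval −0.01 to 0.62, adjusted p = 0.527) and from Sens by 0.09 (SE 0.14, interval −0.22 to 0.40, adjusted p = 0.923), the second being 0.10 (adjusted p = 0.996) without the array labelled Sens replicate 1. Neither was called, beside 0.0799% and 0.0533% of all probe sets in those comparisons.

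Of the 9 other genes with the largest increases among the 133 called higher in Ase, 1 was also within 0.17 of GFP in Ase+m3. Among the 10 genes with the largest increase, CdGAPr differed by 2.18 in Ase against GFP, by −2.09 in Ase+m3 against Ase and by 0.09 in Ase+m3 against GFP. The other 8 genes remained 0.97 to 3.11 above GFP in Ase+m3. Among them phyl, an adaptor gene of bristle precursor specification, was 2.19 above GFP in Ase and 2.15 above GFP in Ase+m3. The comparisons share the Ase and GFP arrays, and no test was made of how Hsc70-2 differs from these genes.

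The genes next to Hsc70-2 on chromosome arm 3R did not differ in the same way. Of the 20 genes on each side in the RefSeq gene order, 29 have a probe set naming them alone, and 0 of the 29 were called in Ase against GFP. At an unadjusted p under 0.05 it was 4 of 29, beside 2742 of all 18769 probe sets, of which 1.24% were called after adjustment. The differences of the neighbours ran between −0.31 and 0.50 with a median of 0.10, close to the median of 0.09 over all genes. CG31157, the gene directly beside Hsc70-2, had the largest, at 3.97 in Ase (n = 2) and 3.47 in GFP (n = 3), with a difference of 0.50 (SE 0.15) and an adjusted p of 0.151.

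**Figure D2:**
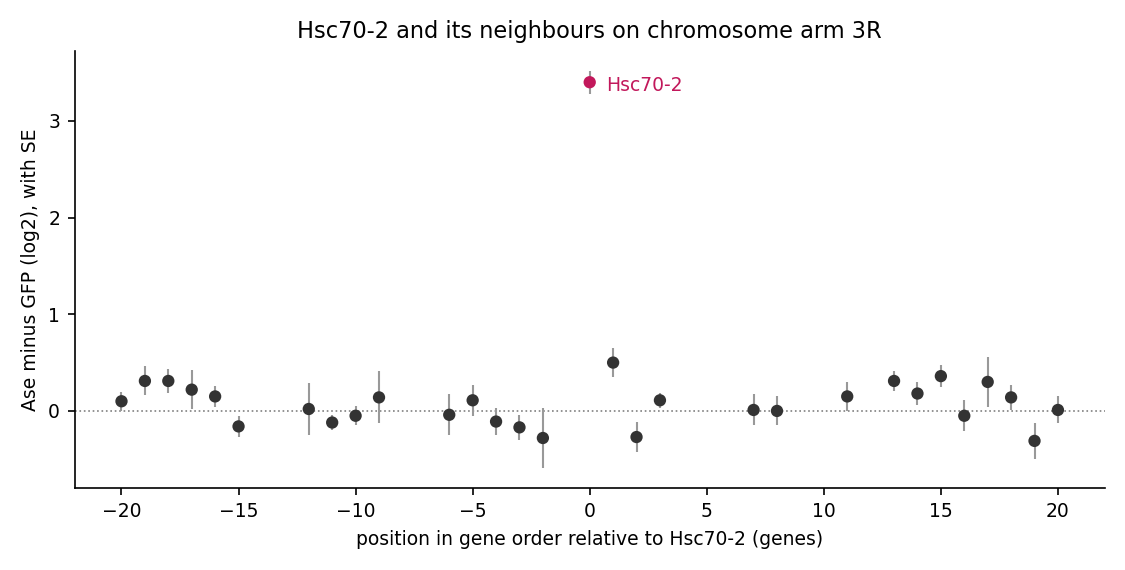
Difference between Ase and GFP (log2, with SE, vertical axis) for Hsc70-2 and the 29 measured genes among its 40 neighbours on chromosome arm 3R, placed by gene order (horizontal axis). Hsc70-2 stands at 3.40 and its neighbours lie between −0.31 and 0.50.

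The genes whose 7 group means ran most like those of Hsc70-2 had their highest mean in Ase over the 16 arrays that measure Hsc70-2. For some of them, but not all, the Ase arrays overlapped those of other groups. Over 2415 genes with a value on those 16 arrays and a range of group means of at least 0.5, the highest Pearson correlations across the 7 means belonged to peg (0.96), kn (0.95), Ugt302K1 (0.946), ImpL1 (0.946) and Ktch (0.94). Since Hsc70-2 has a single high group, such a correlation mostly ranks genes by how far Ase exceeds everything else. The level of peg was 9.18, 7.59 and 9.06 in Ase, against 8.17, 6.39 and 6.42 in GFP. That of kn, an EBF family transcription factor gene, was 6.27, 4.10 and 6.19 in Ase, against 4.95, 3.56 and 3.50 in GFP. On m3 replicate 3, one of the 3 arrays left out because Hsc70-2 is listed at 0 there, peg was at 8.80 and kn at 6.16, about as high as in Ase. Ugt302K1 and ImpL1 did not overlap. Ugt302K1 was at 6.16, 6.25 and 5.98 in Ase and at most 5.22 on the other arrays with a value. ImpL1 was at 7.87, 7.83 and 7.79 in Ase and at most 7.35 on the other arrays. These are descriptions over shared arrays, without a test.

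Hsc70-1, another cytosolic Hsc70, was dim in every group, and its 3 probe sets disagreed. The probe set with the highest mean, 1639380_a_at, lay between 4.08 and 4.79 on the 15 arrays with a value, with group means from 4.13 in m3 to 4.61 in Sens. No group mean differed from another by more than 0.48, where arrays of the same group had a pooled SD of 0.25. The probe set 1627963_s_at stood at 3.68 and 3.67 in Ase+m3 and at 3.65 and 3.66 in Ase, against 3.13 and 3.02 in m3 and 3.40, 3.58 and 3.48 in GFP. It was thus lowest in m3, with no overlap between m3 and any of the 6 other groups.

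Only that probe set passed a test. It was higher in Ase+m3 than in m3 by 0.60 (SE 0.11, interval 0.35 to 0.85, adjusted p = 0.0255), while 1639380_a_at differed by 0.41 (SE 0.22, adjusted p = 0.258) and 1636956_at by 0.06 (SE 0.12, adjusted p = 0.797). This is 1 of the 9 probe sets of these genes, or, leaving out Hsc70-2, 1 of 8, beside 6.56% of all probe sets in the same comparison. The call rests on 2 arrays of each group and was lost without m3 replicate 1 (adjusted p = 0.0678) or m3 replicate 2 (0.12). In m3 against GFP the same probe set differed by −0.41 (SE 0.10, adjusted p = 0.151) and was not called.

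The remaining 5 genes were bright on all 19 arrays and held nearly level across the transgenes. Against GFP, leaving Ase+m3 aside, 0 of their 25 differences were called, in comparisons where limma called 0.218% (Ac), 0.277% (Sens), 1.24% (Ase), 0.341% (m3) and 0.773% (Ac+Sens) of all probe sets. The differences lay between −0.12 and 0.19, and their confidence intervals between −0.37 and 0.39, so a change of 0.5 in either direction lay outside every one of them. The smallest adjusted p was 0.418, and 0 of the 25 had an unadjusted p under 0.05. Of the 25, 16 were above 0 and 8 below, with Hsp26 in Sens at 0.00. Without the array labelled Sens replicate 1, the 5 Sens differences lay between −0.01 and 0.18.

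**Figure D3:**
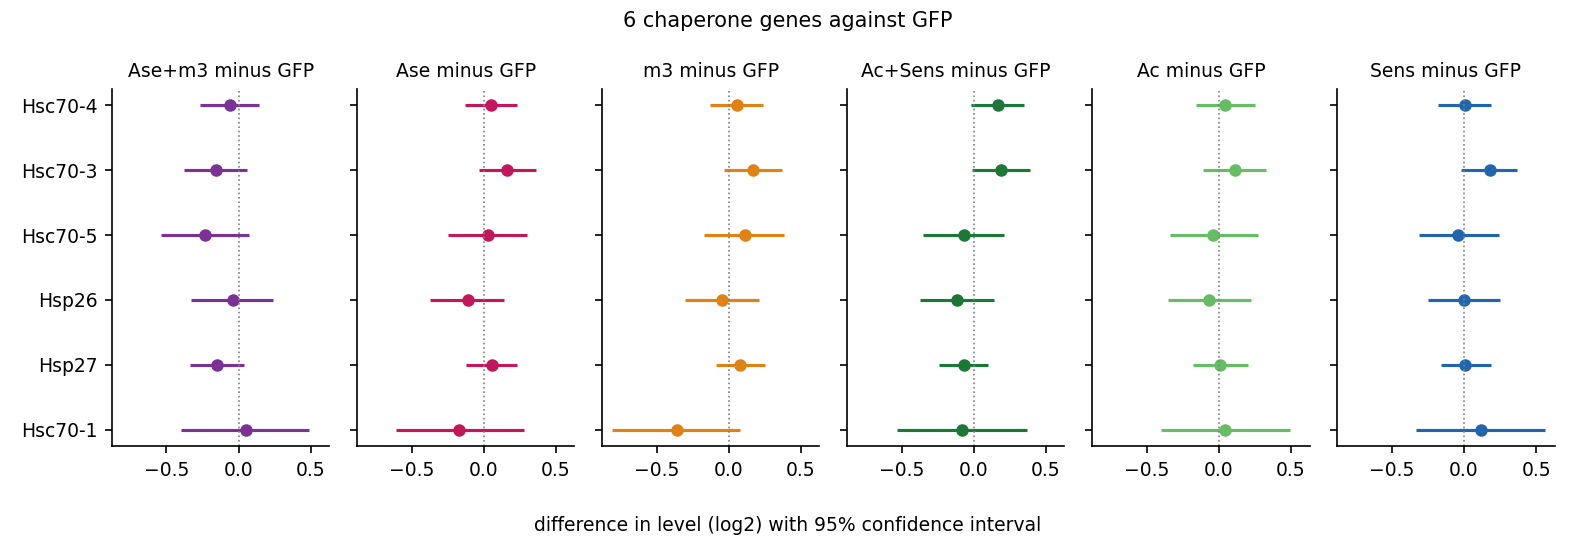
Differences from GFP (log2, horizontal axis, with 95% confidence intervals) of the 5 bright chaperone genes and of Hsc70-1 (its probe set with the highest mean) in each of the 6 other groups. Every interval crosses 0.

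Hsc70-4, the main cytosolic Hsc70, which also uncoats clathrin-coated vesicles, was at 12.50, 12.38 and 12.53 in Ase and at 12.42, 12.38 and 12.47 in GFP. The difference was 0.05 (SE 0.09, interval −0.13 to 0.23), with overlapping arrays. Its highest group was Ac+Sens, with 12.77, 12.46 and 12.54, which was 0.17 above GFP (SE 0.09, adjusted p = 0.458). That mean leaned on Ac+Sens replicate 1, the highest of the 19 arrays for this gene.

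Hsc70-3, the BiP chaperone of the endoplasmic reticulum, was lowest in Ase+m3 (11.67 and 11.35) and next lowest in GFP (11.75, 11.51 and 11.75). The other groups lay close together, at 11.94, 11.73 and 11.82 in Ase, 11.79, 11.89 and 11.82 in m3, 11.90, 11.77 and 11.91 in Ac+Sens, 11.79 and 11.76 in Ac, and 11.85, 11.84 and 11.85 in Sens. All arrays of m3, Ac+Sens, Ac and Sens were above all GFP arrays, but the 5 differences from GFP, at 0.11 to 0.19, did not pass the test. The largest was in Ac+Sens (0.19, SE 0.09, interval −0.01 to 0.39, adjusted p = 0.418).

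Hsc70-5, the mitochondrial Hsp70, averaged 11.30 ± 0.07 in m3 and 11.22 ± 0.08 in Ase, with 11.19 ± 0.19 in GFP (SD, n = 3 each). GFP replicate 2, at 10.98, was low among the GFP arrays. Within Ac+Sens the arrays spread from 10.90 to 11.34, wider than the 0.34 that separates the highest group mean from the lowest.

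Among the small heat shock genes, Hsp26 was the flattest of all. Its group means lay within 0.12 of each other, from 11.59 in Ac+Sens to 11.71 in Sens, which is less than the pooled SD of 0.15 between arrays of a group. In Ase it was at 11.63, 11.58 and 11.58, against 11.84, 11.72 and 11.57 in GFP (difference −0.11, SE 0.12, adjusted p = 0.700). Both its lowest array (11.28) and its highest (11.85) belonged to Ac+Sens, so the other groups all lie within the span of Ac+Sens alone. The gene whose means ran most like it, Zip102B (Pearson correlation 0.88 over 7 means and 2136 genes), varied far more, with 4.09 in Ase, 4.31 in Ac+Sens and 7.77 in GFP.

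Of the 5 bright genes, Hsp27 had the narrowest spread outside Ase+m3, from 13.30 to 13.51 over 17 arrays. It was at 13.47, 13.46 and 13.42 in Ase, against 13.38, 13.35 and 13.46 in GFP, a difference of 0.06 (SE 0.08, interval −0.12 to 0.23). In m3 it was at 13.43, 13.48 and 13.51, or 0.08 above GFP (SE 0.08, adjusted p = 0.755), and in Ac+Sens all 3 arrays, at 13.32, 13.38 and 13.30, were below both Ac arrays, at 13.39 and 13.42. That difference was −0.07 (SE 0.09, adjusted p = 0.898).

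**Figure D4:**
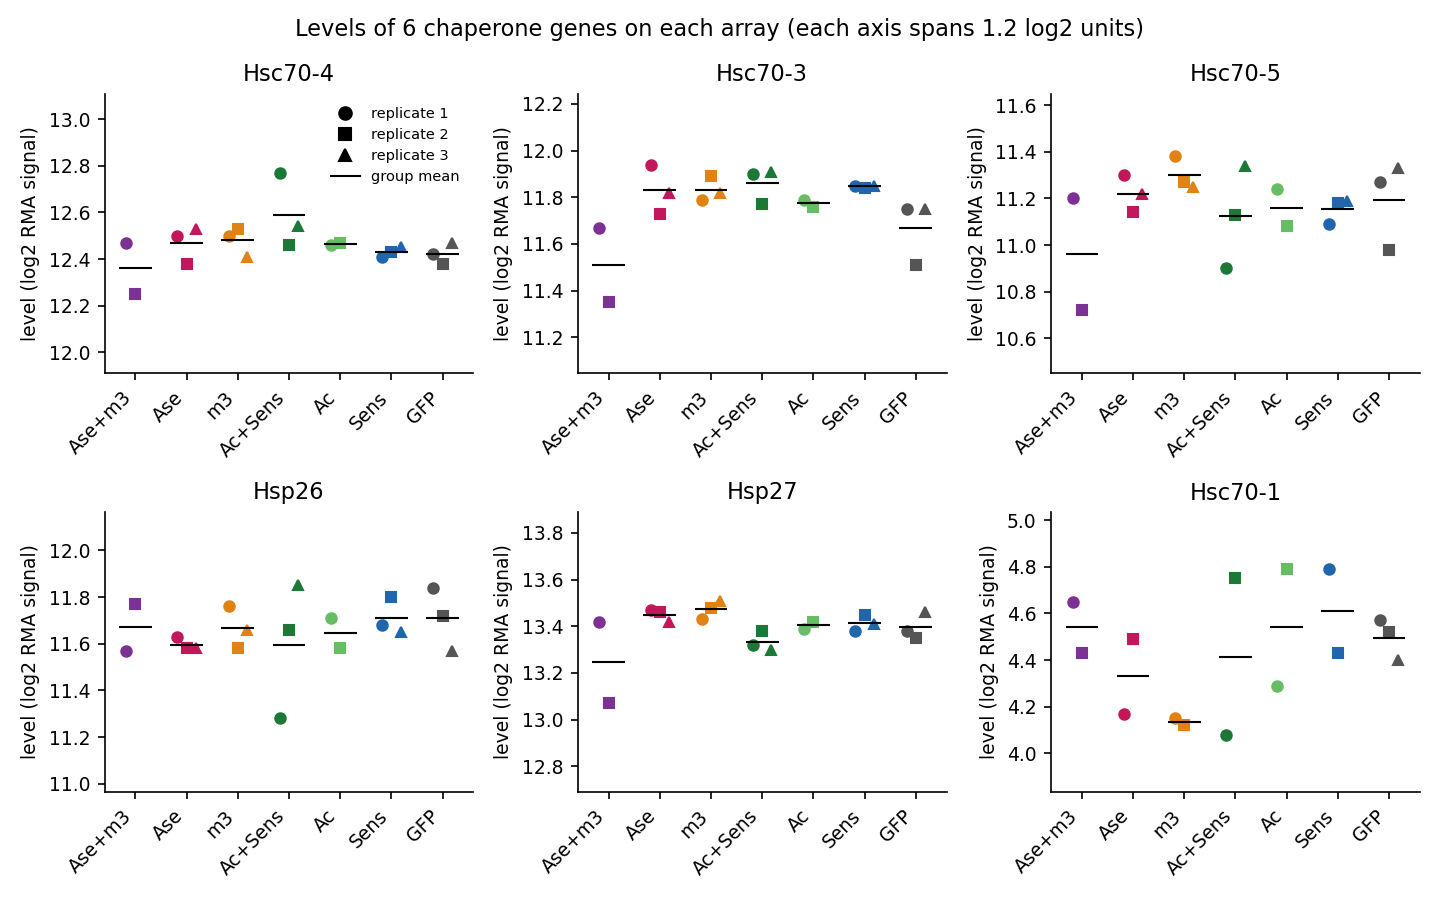
Levels of 6 chaperone genes (log2 signal) on each array by transgene, with bars for group means and each vertical axis spanning 1.2 log2 units. Ase+m3 replicate 2, the purple square, is the lowest of the 19 arrays for Hsc70-3, Hsc70-4, Hsc70-5 and Hsp27.

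Ase+m3 is where the bright genes came closest to a call, and there they moved with 1 array. Ase+m3 replicate 2 was the lowest of the 19 arrays for 4 of the 5 genes, all but Hsp26. This array stood apart over the probe sets in general, and the share of all genes lowest on it is not given here. Hsc70-3 was at 11.67 on replicate 1 and 11.35 on replicate 2, Hsc70-5 at 11.20 and 10.72, and Hsp27 at 13.42 and 13.07. The 5 differences from GFP were −0.23 to −0.04 and 0 were called, beside 2.31% of all probe sets. Against Ase and m3 the 10 differences were −0.34 to 0.07 and again 0 were called (5 of 10 at an unadjusted p under 0.05), beside 5.60% and 6.56% of all probe sets. Of these 10, those of Hsc70-3 were nearest, with −0.33 against m3 (SE 0.10, interval −0.55 to −0.11, adjusted p = 0.0622) and −0.32 against Ase (SE 0.10, adjusted p = 0.0695).

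The size of these differences depends on which Ase+m3 array is kept. Each such fit has 1 array in that group, so only sizes are given here. Without replicate 2, Hsc70-3 was −0.17 from m3, Hsc70-5 −0.10 and Hsp27 −0.05. Without replicate 1 they were −0.49, −0.58 and −0.40. With both arrays kept and the length trend removed from every array, Hsc70-3 was −0.21 from m3 (adjusted p = 0.143), beside −0.33 (0.0622) before. Hsc70-5 was −0.26 (0.230), beside −0.34 (0.14), and Hsp27 −0.29 (0.0856), beside −0.23 (0.115). Hsc70-3 and Hsc70-5 were thus nearer to m3 and Hsp27 further from it. The part of the length trend in these values was not tested.

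With both factors of the other pair the bright genes did not move. Ac+Sens differed from Ac and from Sens by −0.12 to 0.16 over 10 differences, of which 0 were called (smallest adjusted p 0.695). The interaction of Ac and Sens called none of the 8 probe sets other than Hsc70-2, beside 0.0426% of all probe sets, and that of Ase and m3 likewise none, beside the 3.95% given above. In the interaction of Ase and m3, Hsc70-3 came nearest, at −0.49 (SE 0.14, interval −0.79 to −0.2, adjusted p = 0.0568), a value that uses both Ase+m3 arrays. Over all groups, the moderated F of the 6 contrasts with GFP called none of the 8 probe sets other than Hsc70-2, beside 3.62% of all probe sets. The smallest adjusted p was 0.0589, for the Hsc70-1 probe set 1627963_s_at.

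Chaperones and stress genes beyond these members were taken from lists drawn up from general knowledge of the families. They gave 83 measured genes: other Hsp70 and Hsp110 genes, other small heat shock genes, the Hsp90 machinery, J-domain and exchange cochaperones, mitochondrial chaperones, the CCT chaperonin, prefoldin, genes of the endoplasmic reticulum, and the heat shock factor with other stress genes. With 1 probe set a gene, 0 of 83 were called in Ac, Sens and m3 against GFP, beside 0.259%, 0.250% and 0.401% of all 11982 genes. In Ase against GFP 1 was higher and 0 lower (1.2%, beside 1.41% of all genes), with a median difference of 0.06, against 0.09 over all genes. In Ac+Sens 0 were called against Ac or Sens, beside 0.108% and 0.0584% of all genes, and 0 for the interaction of Ac and Sens, beside 0.0417%. So the share of these genes called with Ase was close to that of genes in general.

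The gene called in Ase was Keap1, the inhibitor of the oxidative stress factor Cnc. It was at 6.79 ± 0.09 in Ase and 6.37 ± 0.12 in GFP (SD, n = 3 each), a difference of 0.42 (SE 0.09, adjusted p = 0.0241), and the call was lost without any 1 of the 3 Ase arrays or of GFP replicates 1 and 2 (adjusted p between 0.0687 and 0.115). With the gene length trend removed Keap1 differed by 0.28 (adjusted p = 0.102), with quantile normalization by 0.29 (0.607) and with only the groups compared by 0.42 (0.0647). In Ac+Sens against GFP the only call among the 83 was CG5001, a J-domain gene, at 6.30 ± 0.21 in Ac+Sens and 6.85 ± 0.03 in GFP (SD, n = 3 each). It fell by 0.55 (SE 0.11, adjusted p = 0.0329), 1 of 83 genes beside 0.826% of all genes, and without single arrays of either group its adjusted p was 0.0829 to 0.151, apart from Ac+Sens replicate 3, without which it stayed called. Without Ase replicate 1, m3 replicate 1 or m3 replicate 2 it was 0.0517 to 0.0545. The CG5001 call was also lost with a replicate block (0.0525), the gene length trend removed (0.0686), quantile normalization (0.158) and only the groups compared (0.203).

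PEK, the endoplasmic reticulum kinase that lowers translation when unfolded proteins build up, was the 1 gene of the 83 called in Ase+m3 against GFP, where 2.28% of all genes were. Its 2 Ase+m3 arrays stood at 7.61 and 7.75, against 8.62 to 8.94 in GFP, 8.42 to 8.82 in Ase and 8.25 to 8.60 in m3. Both arrays were therefore below every array of the other 3 groups. The difference from GFP was −1.13 (SE 0.13, adjusted p = 0.000370), and −1.06 without Ase+m3 replicate 2. PEK in Ase+m3 differed from Ase by −0.97 (SE 0.13, adjusted p = 0.00306). From m3 it differed by −0.73 (SE 0.13, adjusted p = 0.0166). With only the arrays of the groups compared, none of the 3 was called (adjusted p = 0.187, 0.383 and 0.360), and none with array weights (1.0, 0.777 and 0.944). Quantile normalization lost the calls against Ase (−0.74, adjusted p = 0.0700) and m3 (−0.50, adjusted p = 0.279), and leaving out m3 replicate 2 lost that against m3 (−0.63, adjusted p = 0.0912).

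Several other chaperone differences in Ase+m3 changed in size with which of its arrays was kept. Against Ase, 1 of 83 was higher (CG4461) and 8 were lower, or 10.8% beside 6.51% of all genes, and against m3 0 were higher and 8 lower, or 9.64% beside 7.38%. For the interaction of Ase and m3 it was 1 higher and 4 lower, or 6.02% beside 4.76%. Those lower against Ase included Hsp110, the exchange factor of Hsp70 (−0.68, SE 0.17, adjusted p = 0.0377), the J-domain genes Tpr2 (−0.45, SE 0.09, adjusted p = 0.0248) and aux (−0.39, SE 0.11, adjusted p = 0.0461), and Cnx99A, the calnexin of the endoplasmic reticulum (−0.58, SE 0.14, adjusted p = 0.0327). Those lower against m3 included stv, a BAG domain cochaperone (−0.68, SE 0.15, adjusted p = 0.0282), Grp170 (−0.51, SE 0.14, adjusted p = 0.0481) and Ero1L, an oxidase that makes disulfide bonds (−0.78, SE 0.16, adjusted p = 0.0208). None of the calls just named held with quantile normalization (adjusted p 0.179 to 0.3), array weights or only the groups compared (0.36 to 0.383). Each was also lost without any 1 array of Ase or m3, whichever it was compared with (0.0502 to 0.149). Those of Hsp110, aux and Grp170 were lost as well without single arrays of groups not compared. Leaving out either Ase+m3 array leaves 1 in the group, so only sizes are given here. Without replicate 2, Hsp110 against Ase was −0.25, beside −0.68 with both arrays, and stv against m3 was −0.35, beside −0.68. Keap1 against Ase was then −0.32, beside −0.36, and PEK against Ase −0.90, beside −0.97. CG4461 against Ase was 0.47 with both arrays, 0.63 without replicate 2 and 0.31 without replicate 1.

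Since all groups were warmed for the same time, some measured genes that answer heat were set out by array. Coverage is partial. The 10 symbols listed as other Hsp70 and Hsp110 genes gave 4 measured genes, and the 8 listed as other small heat shock genes gave 4. Heat-inducible genes without a probe set naming them alone are not covered. Hsp68, a strictly inducible Hsp70, was at 9.80 on Ase+m3 replicate 2 and at 9.26 on GFP replicate 1, and between 7.33 and 8.39 on the other 17 arrays. Its high arrays thus belong to different groups, and within Ase+m3 the other array was at 7.51. No comparison called it, and in Ase against GFP it was at 7.82 and 8.35, a difference of −0.53 (SE 0.46, adjusted p = 0.638). DnaJ-1, the inducible J-domain partner of Hsp70, ran from 8.84 to 10.28 and differed by −0.45 in Ase against GFP (SE 0.29, adjusted p = 0.509).

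Hsp110 and stv were lowest on Ase+m3 replicate 2, the same array on which Hsp68 was highest. Hsp110 was at 9.15 there and between 9.95 and 10.34 on the other 18 arrays, and stv at 6.83 and between 7.38 and 7.90. The level of Hsf, the transcription factor of the heat shock response, was 10.51 ± 0.13 in Ase and 10.39 ± 0.03 in GFP (SD, n = 3 each), which did not pass the test (difference 0.11, SE 0.09, adjusted p = 0.585). On the 3 arrays where Hsc70-2 was high, Hsp68 was at 8.24, 7.33 and 7.89, against 9.26, 7.98 and 7.81 in GFP, and DnaJ-1 was at 9.52, 8.84 and 9.79, against 10.21, 9.90 and 9.39 in GFP. The arrays of both groups overlapped for both genes.

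**Figure D5:**
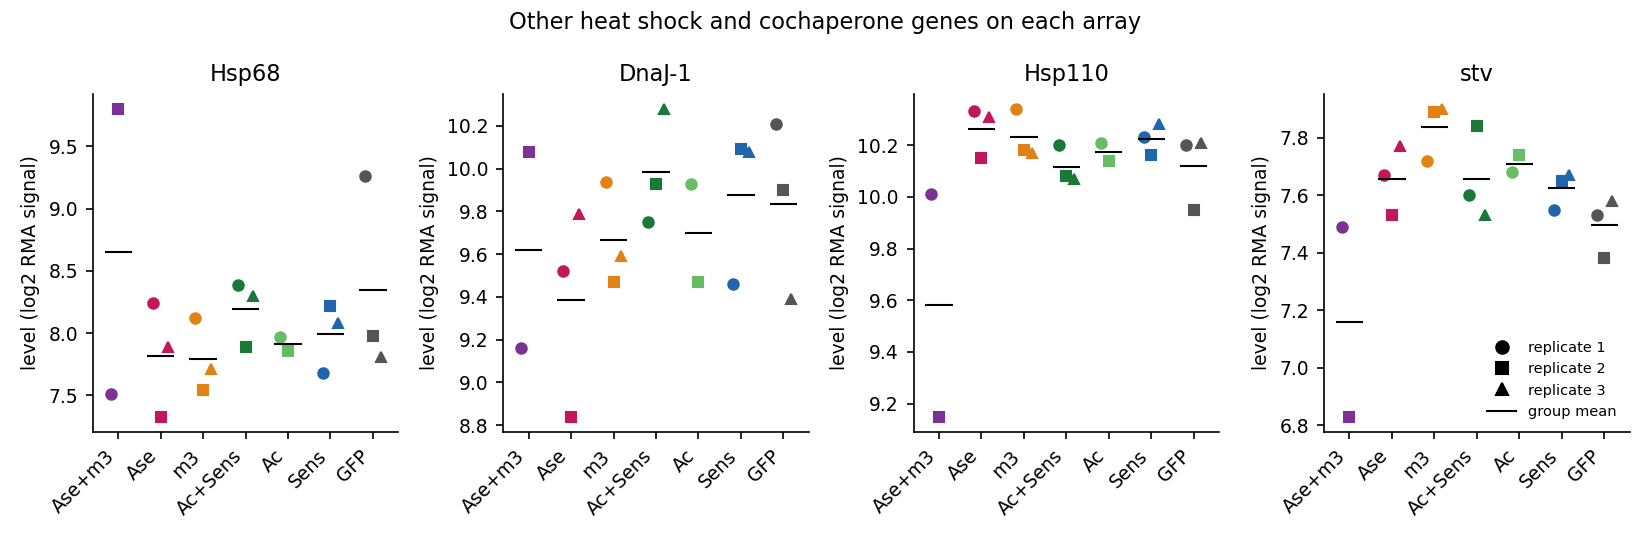
Levels of Hsp68, DnaJ-1, Hsp110 and stv (log2 signal) on each array by transgene, with bars for group means. Hsp68 is highest on Ase+m3 replicate 2 (9.80) and GFP replicate 1 (9.26), and Hsp110 and stv are lowest on Ase+m3 replicate 2.

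Markers of other cells were read beside these values. Of 8 germline and testis genes, 7 are measured and all are listed at 0 on some array. In Ase against GFP 0 were called, beside 1.41% of all genes, with a median difference of 0.12, against 0.09 over all genes. Of 6 neuron and glia genes 5 are measured, and 0 were called there, with a median difference of 0.31. The 3 with a value on every array summed to 10.14 to 10.24 in Ase and 9.88 to 10.14 in GFP, with 10.13 to 10.39 in m3, where Hsc70-2 was low. The summed signals (log2) of the 4 measured of 6 fat body genes were 12.53 to 13.15 in Ase, against 12.04 to 12.80 in GFP. In Ac+Sens, where Hsc70-2 was low, they ran from 12.06 to 13.44. Those of the 4 measured of 8 muscle and myoblast genes reached 10.12 in Ase and 9.86 in GFP, with every Ase array above every GFP array. They reached 10.06 in Ac, where Hsc70-2 was low, and every Ac array was also above every GFP array. In Sens, m3, Ac+Sens and Ase+m3 the lowest array for these muscle genes was below the highest GFP array. The 2 of 5 trachea markers with a value on every array summed to 8.75 to 9.18 in Ase and 8.13 to 8.73 in GFP, again without overlap, with 8.84 to 9.38 in Ac+Sens and 8.81 to 9.04 in m3, where Hsc70-2 was low. The 2 of 6 haemocyte markers with a value on every array summed to 8.08 to 8.33 in Ase and 7.56 to 7.83 in GFP, with 8.03 to 8.71 in Ac, where Hsc70-2 was low. NimC1, a receptor of these blood cells, was called higher in Ase (0.86, SE 0.15, adjusted p = 0.0145), with a value on 2 Ase arrays. It was the 1 of the 6 haemocyte genes called there, beside 1.41% of all genes. Hml, He, NimC1 and eater are listed at 0 on some arrays. NimC1 was as high in Ac+Sens (0.91 above GFP), another group in which Hsc70-2 was low. The part of these cells in the Hsc70-2 level was not tested.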

How the data were processed

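RNA of 19 notum pools was measured on Affymetrix arrays. The authors deposited 1 log2 signal per probe set and array, made with RMA per the submitters' processing notes. Its version is not given in the sources. Exact zeros on 4 arrays were treated as missing. No detection calls were used, and array signals carry no read depth, so the number of arrays limits the precision.

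Genes were assigned from the annotation of the array platform (13647 of 18769 name 1 gene, 402 several, 4720 none). A gene with several was represented by its brightest, by mean over the 15 arrays free of zeros, and the others are given too. The RefSeq table (Release 6) was used for gene length and gene order only. Annotated symbols can be old, and closely related Hsp70 genes can share probes.

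Limma 3.58.1 in R 4.3.3 was run on all probe sets in 1 model with 7 group means and no covariate, with two-sided p-values adjusted by Benjamini-Hochberg over all probe sets of a comparison. An adjusted p under 0.05 was called. There were 12 comparisons (6 groups against GFP, each pair against its factors, 2 interactions) and a moderated F. Groups come from the titles, which number the arrays. Labels speak of biological replicates. Over 52 same-numbered pairs the correlation of deviations had a median of −0.003 (−0.425 to 0.547), against 0.007 over differently numbered pairs. The 4 arrays with listed zeros are all replicate 3, so the number does go with 1 trait of the arrays. A block on the number was run as an alternative. The script was tested on simulated data.

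The genes named are all members, the called genes of each chaperone list (at most 4 per list and comparison) with further abundant or inducible ones, and the 5 genes most like Hsc70-2. Members and lists were chosen with earlier results of these data known. Alternatives were another normalization, filters, the replicate number as a block, array weights, the gene length trend removed, only the groups compared, and each array left out. Leaving out the array labelled Sens replicate 1 with Ase+m3 replicate 2 was chosen after seeing the data, as was the form of quantile normalization used. Sequences of the genes were not used here.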

Additional observations from a re-analysis of the deposited data

Results flagged for a closer look

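In 5 genes of the chaperone lists the effect of both factors differed from the sum of the single effects, by limma's test of the interaction, which is the Ase+m3 minus Ase difference less the m3 minus GFP difference. Over all probe sets 3.95% were called there. For Hsc70-2 the interaction was −2.99 (SE 0.19), a description, since the gene was picked on Ase against GFP. Among the 5 tested, Ero1L, the disulfide oxidase of the endoplasmic reticulum, had −0.91 (SE 0.21, adjusted p = 0.0356), stv, the BAG domain cochaperone, −0.84 (SE 0.20, adjusted p = 0.0375), Hrd3, of endoplasmic reticulum protein degradation, −0.60 (SE 0.13, adjusted p = 0.0312), Keap1 −0.50 (SE 0.13, adjusted p = 0.0464) and the small heat shock gene CG7409 0.87 (SE 0.19, adjusted p = 0.0357). With the gene length trend removed 0 of the 5 were called. The CG7409 call was lost without GFP replicate 1 or 2, without any 1 of the Ase or m3 arrays (adjusted p between 0.0579 and 0.108 over these), without Sens replicate 1 or 2 (0.0513 and 0.0548) and with only the groups compared (0.0850). With the replicate number as a block only Hrd3 stayed called (0.0439), while Ero1L (0.0523), CG7409 (0.0528), stv (0.0597) and Keap1 (0.0653) did not. The calls of Hrd3, Ero1L, stv and Keap1 were also lost without GFP replicate 1 or 2 and without any 1 of the Ase or m3 arrays. Quantile normalization, array weights and only the groups compared each left 0 of the 5 called. For Hrd3 the adjusted p was 0.506 with quantile normalization and 0.0875 without Ase replicate 1. Without Ase+m3 replicate 2, which leaves 1 array in that group, CG7409 was 1.0, Ero1L −0.60, stv −0.51, Hrd3 −0.46 and Keap1 −0.45. CG7409 is a dim gene, at 3.49 and 3.75 in Ase+m3, 3.13 and 3.27 in Ase, 3.28 and 3.34 in m3 and 3.67 to 3.86 in GFP, and 1 array each of Ase and m3 is missing for it.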

How the results depend on the processing

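The difference of Hsc70-2 between Ase and GFP was 3.31 to 3.55 and that between Ase+m3 and Ase −3.38 to −3.04 under every alternative that tests it, apart from the planned quantile normalization named below. With only probe sets measured on all arrays, or dim ones left out, neither Hsc70-2 nor Hsc70-1 is tested. Of the 5 bright genes that remain, 0 were called in Ase against GFP and 0 in the moderated F. Hsc70-3 was then called in Ase+m3 against Ase (adjusted p = 0.0432 and 0.0464) and m3 (0.0457 and 0.0492). The call of Hsc70-1 in Ase+m3 against m3 was lost, leaving 0, with quantile normalization (adjusted p = 0.326), array weights (0.920, both Ase+m3 arrays having a weight of 0.1) and only the groups compared (0.360). Array weights gave 1 call in m3 against GFP (Hsc70-1, −0.37, adjusted p = 0.0207) and 2 in the F. Leaving out 1 array in turn, apart from the Ase+m3 arrays, where 1 would be left, gave 0 member calls in Ase+m3 against GFP and 1 against Ase. Against m3 it gave 1, or 0 without m3 replicate 1 or 2. The interaction of Ase and m3 kept 1, and the F had 1, or 2 without Ac+Sens replicate 1 or 2. Ase against GFP kept 1, and the other comparisons kept 0. The 1 call in Ase against GFP, in Ase+m3 against Ase, in that interaction and in the F is Hsc70-2. Since it was picked on Ase against GFP, these counts are a description. With the replicate block, counts of member calls stayed as they were (Hsc70-1 adjusted p = 0.0465), while over all probe sets those for Ase+m3 fell to 152 calls against GFP, where 433 were called without it, to 507 against Ase, where 1051 were, and to 381 against m3, where 1231 were. Ac+Sens against Ac had 8 in place of 15, the interaction of Ase and m3 275 in place of 741 and the F 305 in place of 679. The block fit is approximate where values are missing. 8 of 19 arrays correlated best with an array of their own number. Over all settings the calls among all probe sets ran from 8 to 192 in Ac against GFP (41 as reported), 16 to 771 in Sens (52), 68 to 2659 in Ase (233), 20 to 998 in m3 (64), 31 to 1574 in Ac+Sens (145) and 8 to 2901 in Ase+m3 (433). They ran from 2 to 924 in Ac+Sens against Ac (15) and 1 to 657 against Sens (10), 2 to 3435 in Ase+m3 against Ase (1051) and 0 to 3281 against m3 (1231), 3 to 202 and 4 to 3409 in the interactions of Ac with Sens (8) and Ase with m3 (741), and 122 to 4812 in the F (679). Quantile normalization as first planned set the bright values of 4 arrays against all values of the others, giving a median of 5.05 where the deposited values had 8.30. Under it 0 probe sets were called in Ase against GFP and Hsc70-2 differed by 1.92, and it was replaced. The causes of these changes were not tested. Levels near 3 sit at the floor of the arrays, which limits what can be said of Hsc70-1 and, outside Ase, Hsc70-2.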
